A study of Mus musculus and Homo sapiens with 10 samples.

Results

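The ribosomal RNA gene copies that are placed in the mouse and human genome assemblies held 29 of the 208002 peaks called in this chromatin immunoprecipitation sequencing (ChIP-seq) series. They were chosen by position, with peaks of these lists already known: every peak on mm9 chromosome 17 from 39970000 to 39995000, where the assembly carries a 45S copy (Rn45s), every peak on the hg19 contig GL000220.1 with 45S copies (RNA45S5), and every peak on hg19 chromosome 1 from 228740000 to 228790000 with the 5S array (RNA5S1). The mouse copy held 11 peaks, the human contig 1 and the human 5S array 17. The gene names belong to the choice of intervals: the deposited lists carry positions only, and the names were not checked against a gene annotation of either build.

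Each antibody in each cell line is represented by 1 peak list, 10 in all. NIH3T3, an immortalized mouse fibroblast line, has 7 lists: the upstream binding factor UBF (isoforms UBF1/2), RNA polymerase I (Pol I, antibodies to its largest subunit POLR1A), RNA polymerase II (Pol II, an antibody to the phosphorylated C-terminal repeat), H3K4me3, H3K9ac, H4 hyperacetylation and H3K9me3. HMLER is a tumorigenic line derived from HMEC that expresses SV40 large-T, TERT and the oncogenic HRASV12 allele, and has a UBF list. HMEC, human mammary epithelial cells immortalized by TERT, has a UBF list and a Pol I list. TERT is thus common to both human lines, all cells were harvested during exponential growth, and the labels name no treatment. A list has no second list of its kind, and it holds no score, height or read count. The depth behind each peak is therefore unknown, the values below carry no replicate error, and no test was made.

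The 45S genes are transcribed by Pol I into a precursor that is cut into the 18S, 5.8S and 28S ribosomal RNAs, and they stand in long tandem arrays with spacers between them. UBF, an architectural factor of Pol I transcription, is known to bind along the promoter and the transcribed part of active copies, while other copies in the same cell are silent and packed in chromatin with H3K9me3. The 5S genes form a separate tandem array and are transcribed by RNA polymerase III, not by Pol I. A cell has many more copies than an assembly places, so reads from all copies that align fall on the few placed ones: reads of active and of silent copies, and high coverage and true enrichment, cannot be told apart in these lists. The genomic DNA inputs named in the study's design were not analysed here.

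At the mouse 45S copy all 7 antibodies gave peaks, and these covered nearly the same stretch. The UBF peak ran from 39979429 to 39986294 on chromosome 17, a width of 6865 bp. Every base of the other 6 lists at the copy lay inside it. The Pol II peak ran from 39979856 to 39985933 (6077 bp), and the H3K4me3 peak, a mark of active promoters, from 39979877 to 39986155 (6278 bp). The peaks of the acetylation marks of open chromatin were the shortest of the single peaks: H3K9ac ran from 39979892 to 39985902 (6010 bp) and H4 hyperacetylation from 39979827 to 39985846 (6019 bp). H3K9me3, the mark of silent chromatin, ran from 39979446 to 39986068 (6622 bp), the second longest extent after UBF. The peaks of 7 lists together in 1 place were uncommon elsewhere. Among all 3704 UBF peaks, 63 (1.7%) overlapped each of the 6 other lists by at least 1 bp, among the Pol I peaks 4.47% overlapped each of the 6 others, and among 105519 windows of 25 kb, 132 (0.125%) held a peak of all 7 lists. Because the interval was chosen from these peaks, the shares describe the setting and are not evidence about the copy.

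**Figure D1:**
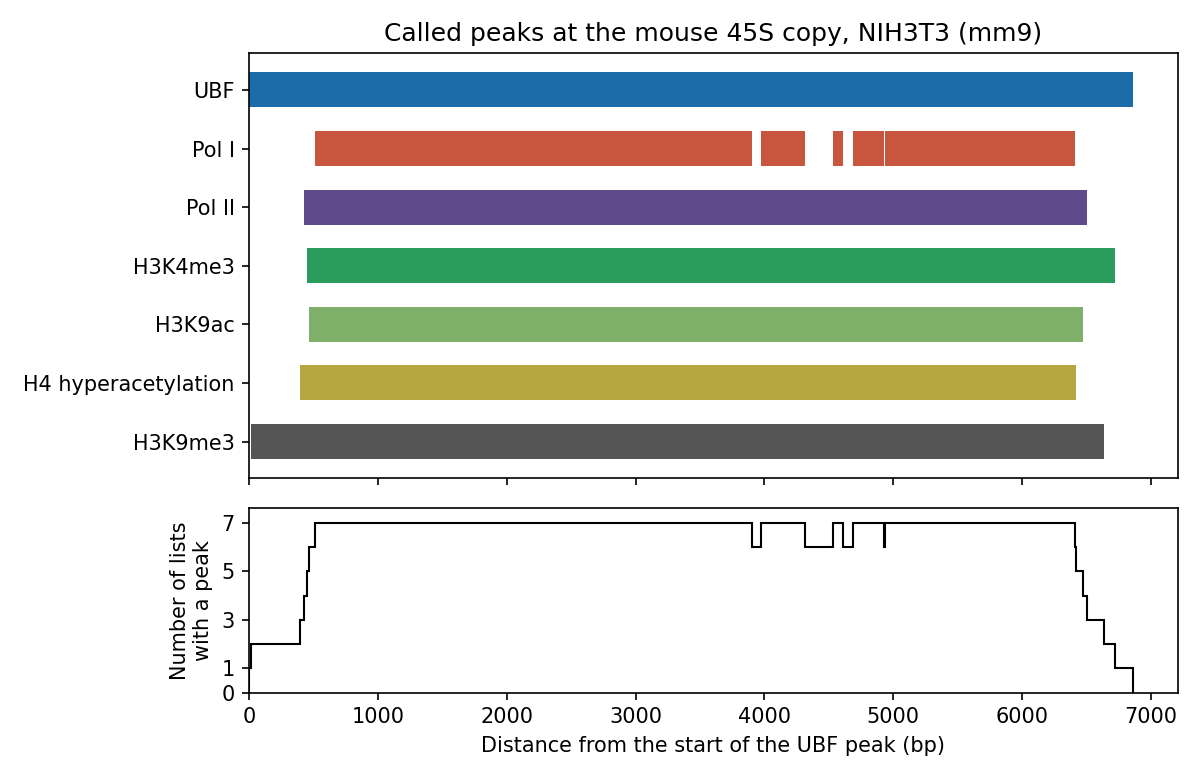
Called peaks of the 7 NIH3T3 lists at the mouse 45S copy (upper panel, 1 bar per peak) and the number of lists with a peak at each base (lower panel), by distance in bp from the start of the UBF peak. The Pol I list is broken into 5 peaks with gaps between 3904 and 4936 bp, and UBF and H3K9me3 begin at least 381 bp before the other lists.

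The left edges fell into 2 sets. UBF and H3K9me3 began within 17 bp of each other, and the next list, H4 hyperacetylation, began 381 bp farther right. From there Pol II, H3K4me3, H3K9ac and Pol I followed within 112 bp. The stretch covered by UBF and H3K9me3 alone was therefore 381 bp long. The right edges were spread more evenly. Pol I ended first, H4 hyperacetylation 8 bp, H3K9ac 64 bp and Pol II 95 bp after it, and H3K9me3 230 bp, H3K4me3 317 bp and UBF 456 bp after it. UBF extended past Pol I by 510 bp on the left and 456 bp on the right, and past H3K9me3 by 17 bp and 226 bp. The peak caller is not given and the bounds of the assembled copy were not used here, so what set these edges was not tested.

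Of the 6865 bp, 5525 bp (80.5%) lay in peaks of all 7 lists, and a further 429 bp (6.25%) lay in 6 lists, lacking Pol I in each case. Where only 1 to 5 lists had a peak, the bases lay at the edges. The H3K9me3 peak shared 6191 bp with the H3K4me3 peak, which is 93.5% of the H3K9me3 peak and 98.6% of the H3K4me3 peak. UBF shared 6077 bp with Pol II, 88.5% of the UBF peak and 100% of the Pol II peak. Over the whole UBF list, 50.5% of peaks overlapped Pol II, 16.2% H3K9me3, 49.3% H3K4me3, 49.1% H3K9ac, 50.2% H4 hyperacetylation and 7.32% Pol I. These are shares of peaks with at least 1 bp of overlap, not shares of bases. The share of all H3K9me3 peaks that overlap H3K4me3 was not computed. Such sharing was not limited to the copy. On chromosome 9 an H3K9me3 peak ran from 2999823 to 3038937 and an H3K4me3 peak from 2999852 to 3038780.

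Pol I was the only list that was broken inside the copy. Its 5 peaks spanned 5899 bp from 39979939 to 39985838 and covered 5525 bp (93.7%) of that span. The first and widest ran over 3394 bp to 39983333. Next came peaks from 39983400 to 39983743 (343 bp), from 39983963 to 39984041 (78 bp) and from 39984118 to 39984355 (237 bp). The last ran over 1473 bp from 39984365. The widest pair made up 88.1% of the covered bases. The gaps were 67, 220, 77 and 10 bp long and all lay in a stretch of 1032 bp, of which Pol I peaks covered 63.8%. In that stretch the peaks of the 6 other lists ran through unbroken. The Pol I list was finer throughout, with a minimum width of 45 bp and a median of 230 bp. In the 6 other lists the minima were 190 to 277 bp and the medians 683 to 1685 bp. Whether this difference between the lists accounts for the breaks was not tested. All 5 Pol I peaks lay inside the UBF peak, but they belong to 1 place and are not 5 separate cases. Over the whole Pol I list 20.9% of peaks overlapped a UBF peak, and this share is no background for them. The UBF peak was the only one of 3704 (0.027%) to overlap 5 or more Pol I peaks, while 252 overlapped 1 Pol I peak, 17 overlapped 2, and 1 overlapped 3. The limit of 5 was taken from this peak itself, the widest of its list, so the share is a description only. With Pol I peaks 200 bp or less apart joined, the Pol I list had 2 peaks at the copy, so the count of 5 depends on gaps of 10, 67 and 77 bp. What the gaps correspond to in the gene was not tested.

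Within their own lists the mouse peaks were wide. The UBF peak was the widest of 3704, at 7.0 times the median of its list (981 bp) and 1.09 times the next widest. Both end peaks of Pol I were the widest and second widest of 1409, at 14.8 and 6.4 times the list's median of 230 bp, whereas its 78-bp peak was among the narrowest, with 8.375% of the list narrower. The H3K9me3 peak ranked 35 of 23795 and the Pol II peak 43 of 30239. The marks of active chromatin ranked lower, H3K4me3 at 364 of 27982, H4 hyperacetylation at 428 of 41519 and H3K9ac at 491 of 28308. The 7 extents differed little in length, from 5899 to 6865 bp, while the medians of the lists of active marks, 1197 to 1685 bp, were above those of the other lists (230 to 1050 bp).

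By covered bases, the 25-kb interval ranked 1 of 105519 windows for Pol I, 2 for UBF and 178 for H3K9me3. Its ranks were 671 for Pol II, 1567 for H3K4me3, 1898 by H3K9ac and 2359 by H4 hyperacetylation. Windows with at least 1 peak made up 1.26% in the Pol I list, 3.5% in the UBF list, 16.6% with H3K9me3, 14.5% with Pol II, 18.6% with H3K4me3, 17.5% with H3K9ac and 21.1% with H4 hyperacetylation. The windows were laid in register with the interval, which was chosen with these peaks known, and they left out contigs. The ranks are therefore a description only.

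In most lists no other peak lay near the copy, and whether such distances are unusual for these lists was not tested. The nearest UBF peaks outside the interval lay 1882121 bp to its left and 3307195 bp to its right, and the nearest Pol I peaks 3601390 and 4403876 bp away. For Pol II the distances were 2782095 and 1021747 bp, for H3K4me3 1836678 and 1018685 bp, and for H3K9ac 1836699 and 1018664 bp. H4 hyperacetylation had its nearest peaks 1836809 bp to the left and 140372 bp to the right. H3K9me3 was the closest on both sides, with a 763-bp peak 36258 bp to the left and a 1380-bp peak 134150 bp to the right. The intervals' outer bounds therefore decided the membership of no mouse peak.

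On the human contig GL000220.1 the lists differed altogether. HMEC Pol I had a single peak from 101469 to 147004, without a break. At 45535 bp it was the widest peak of all 10 lists, 4.06 times the second widest of its own list and 157 times that list's median of 290 bp. The UBF lists of HMLER and HMEC held no peak on the contig under either style of contig name. They held 11 of 32274 peaks in HMLER and 2 of 9478 in HMEC on other contigs. HMEC Pol I had 14 contig peaks among 9294, of which the other 13 were 154 to 1972 bp wide. Contigs are named in 1 style in both HMEC lists (GL000192.1) and in another in the HMLER list (Un_gl000212). Nothing in the sources used here says how contigs, repeats and reads with several possible positions were treated in each list, so the missing UBF peaks do not show that UBF was absent from human 45S genes.

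**Figure D2:**
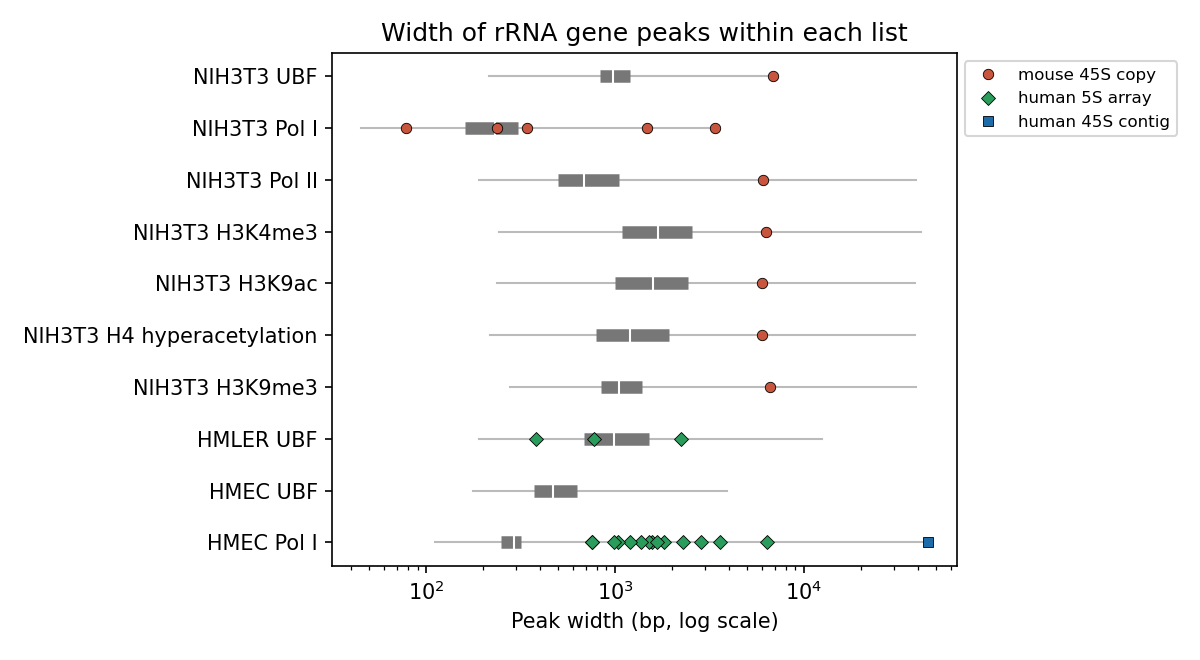
Width in bp (log scale) of the rRNA gene peaks, shown as coloured symbols, within each of the 10 lists. Thin lines span the whole list, thick bars its quartiles and the white tick its median. The HMEC Pol I peak on the human 45S contig, at 45535 bp, is the widest of the series, and the HMEC UBF list has no symbol because it held no peak at any of these genes.

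At the human 5S array HMEC Pol I had 14 peaks, HMLER UBF 3 and HMEC UBF none. The Pol I peaks spanned 37042 bp from 228745592 to 228782634 on chromosome 1 and covered 27816 bp of it (75.1%). In the 50-kb interval this was the largest number of peaks and the largest covered length that the Pol I list reached in any of 60704 windows of that size, of which 12.9% held a Pol I peak. The interval was chosen with these peaks known, and the windows were laid in register with it, so this is a description only. The windows also left out contigs, and the Pol I peak on GL000220.1 covered more, 45535 bp. HMLER UBF covered 3391 bp in the interval and ranked 3061 by covered bases, with 28.7% of windows holding a peak. HMEC UBF peaks were present in 11.9% of windows. Windows with peaks of both HMLER UBF and HMEC Pol I made up 7.05% of the total, and those of them without an HMEC UBF peak 4.23%.

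**Figure D3:**
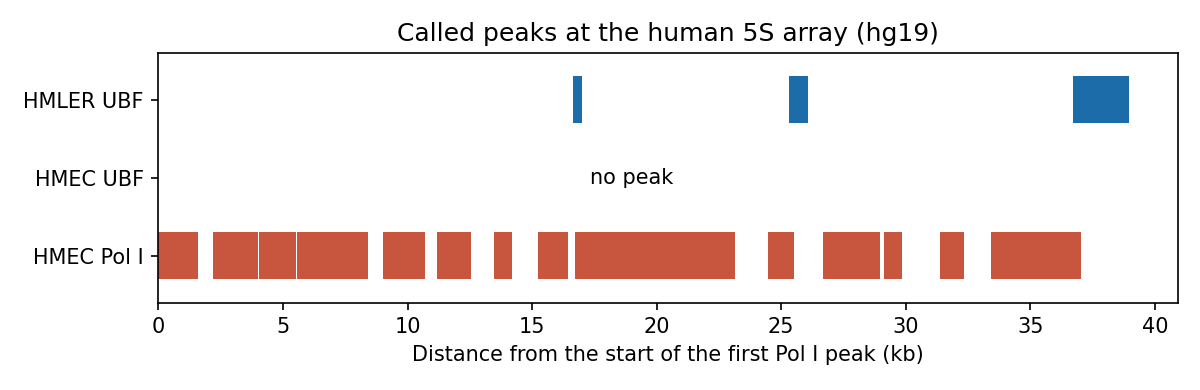
Called peaks of HMLER UBF, HMEC UBF and HMEC Pol I at the human 5S array, 1 bar per peak, by distance in kb from the start of the first Pol I peak. The 14 Pol I peaks fill 75.1% of their span, the 3 UBF peaks of HMLER each touch an edge of a Pol I peak, and HMEC UBF has none.

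The 14 Pol I peaks were 751 to 6417 bp wide, with a median of 1538 bp, and each was wider than the list's median of 290 bp. Their ranks by width ran from 3 to 93 among 9294, and 1.01% of the list was at least as wide as the narrowest of them. The widest ran from 228762332 to 228768749 (6417 bp) near the middle of the array and held 23.1% of the covered bases. The next widest was the last, from 228779032 to 228782634 (3602 bp), followed by peak 4 from the left, from 228751137 to 228753990 (2853 bp), and peak 11, from 228772265 to 228774556 (2291 bp). The others, in order from the left, were 1570, 1810, 1506, 1673, 1364, 751, 1203, 1034, 755 and 987 bp wide. The narrowest were thus the seventh and the twelfth, at 751 and 755 bp.

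The gaps between neighbouring Pol I peaks ranged from 8 to 1491 bp, with a median of 615 bp, and 9 of the 13 gaps exceeded 500 bp. Peaks 2, 3 and 4 were only 36 and 8 bp apart and formed an almost unbroken stretch of 6213 bp from 228747777 to 228753990, close in length to the widest single peak. Peaks 11 and 12 were 150 bp apart and together reached 3196 bp. The widest gaps lay in the right part of the array, with 1326 bp and 1156 bp on either side of the tenth peak and 1491 bp after the twelfth.

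The spacing of the Pol I peaks varied along the array. Their centres were a median of 2305 bp apart, from 1673 to 5051.5 bp, and their starts a median of 2185 bp. Of the 13 distances between starts, 7 lay between 2000 and 2500 bp, a range chosen after the values were seen: 2185 bp after the first and the fifth peak, 2262 bp after the sixth, 2190 bp after the tenth, 2441 bp after the eleventh, 2246 bp after the twelfth and 2080 bp after the thirteenth. Another 4 distances were shorter and 2 were longer. Between centres, and likewise between ends, only 5 of the 13 distances lay in that range. The longest distance, 7743 bp, followed the start of the 6417-bp peak. Positions of the single 5S repeats were not used here, so the steps were not set against them.

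**Figure D4:**
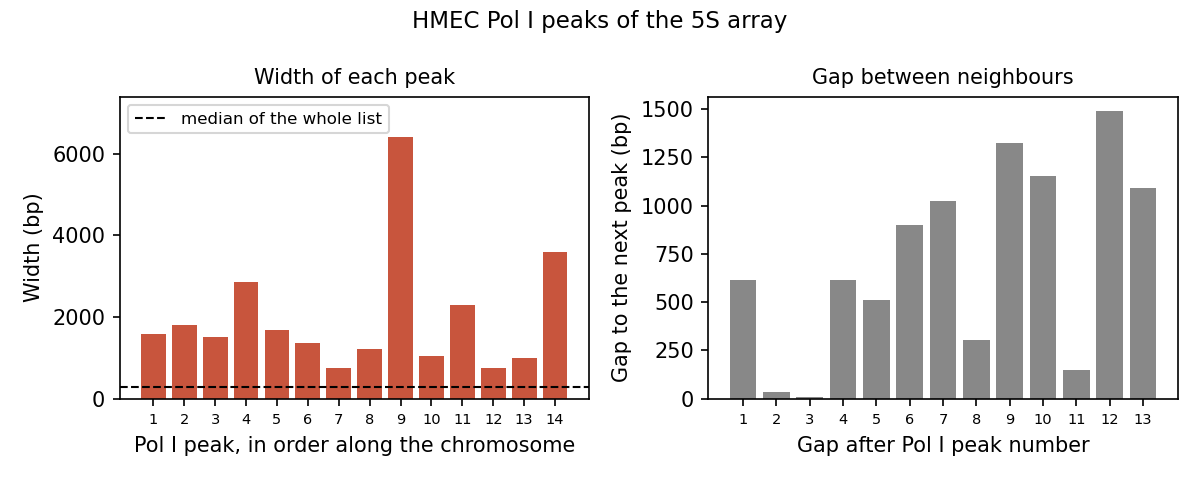
Width of each of the 14 HMEC Pol I peaks of the 5S array in bp, in order along the chromosome, with the median of the whole list as a dashed line at 290 bp (left), and the gap in bp between each peak and the next (right). All 14 bars stand above the line, and the gaps run from 8 to 1491 bp.

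The 3 UBF peaks of HMLER ran from 228762233 to 228762614 (381 bp), from 228770917 to 228771687 (770 bp) and from 228782312 to 228784552 (2240 bp). They spanned 22319 bp but covered only 15.2% of it, with gaps of 8303 and 10625 bp, and no UBF peak lay over the first 8 Pol I peaks. Only the third was wider than its list's median of 982 bp, at rank 2712 of 32274. The first was narrow, with 5.091% of the list narrower.

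All 3 HMLER UBF peaks overlapped an HMEC Pol I peak by at least 1 bp, where 3.47% of the whole HMLER UBF list did so, and 3 of the 14 Pol I peaks overlapped an HMLER UBF peak, where 12.4% of the Pol I list did. Pol I peaks covered 75.1% of their span here, with gaps of at most 1491 bp. The share over the whole list is therefore no background for overlap inside the array. The shared parts were short and lay at the edges. The first UBF peak shared 282 bp with the left end of the ninth, widest Pol I peak. The second shared 192 bp with the right end of the tenth Pol I peak and ran 578 bp beyond it into the gap. The third shared 322 bp with the right end of the last Pol I peak and ran 1918 bp beyond it, past the end of the Pol I array. In all, 796 bp were shared, 23.5% of the UBF bases and 2.86% of the Pol I bases. With at least 50% of the UBF peak required to be covered, only the first of the 3 counted as shared. Over the whole HMLER UBF list, 14.6% of peaks overlapped an HMEC UBF peak. HMEC UBF had no peak in the interval, so none of the 3 could overlap one. These lists come from different cell lines. No UBF peak of HMEC could be set beside the Pol I peaks of the same line, and over the whole HMEC Pol I list 2.86% of peaks overlapped one.

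The UBF lists differ at the array by 3 peaks in HMLER against 0 in HMEC, and this difference cannot be set against a spread between cultures. The HMLER list is also longer and its peaks wider, with 32274 peaks of median 982 bp against 9478 peaks of median 469 bp in HMEC, and its part in the difference was not tested. The nearest peaks outside the interval lay 63864 bp to the left and 80592 bp to the right for HMLER UBF, 93698 and 127562 bp for HMEC UBF, and 87449 and 102224 bp for HMEC Pol I. No outside peak of a human list thus lay closer than 63864 bp, and the bounds of the interval decided no membership. Whether such distances are unusual for these lists was not tested.

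The 2 kinds of copies can be set side by side in the Pol I lists. In NIH3T3 the 45S copy held 5 of 1409 Pol I peaks over 5899 bp, with gaps of at most 220 bp. In HMEC the 45S contig held 1 peak with no gap over 45535 bp, and the 5S array held 14 of 9294 peaks over 37042 bp with gaps of up to 1491 bp. In each list the widest peak of all lay at a 45S copy. The lists were made for different species and builds, their callers and thresholds are unknown, and the lengths were therefore not compared further.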

How the data were processed

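ChIP-seq peak lists of 7 antibodies in NIH3T3, 2 in HMEC and 1 in HMLER were used. The authors deposited each list as 3 columns (chromosome, start, end), with no score, count or p-value. The submitters' processing notes name mm9 and hg19 as builds and Picard, BWA and CASAVA 1.8.2 as tools. Not given in the sources used here are the caller of the peaks, its threshold, the filters, the treatment of reads with several positions and whether the 2 UBF replicates named for NIH3T3 were pooled into 1 list.

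Files were read with carriage returns as line ends, 1 of them (Pol I of NIH3T3) without a header. Coordinates are as deposited, and width is end minus start. A peak belonged to an interval if at least 1 bp lay in it. Contig names were matched in both styles. Windows of 25 and 50 kb tiled chromosomes 1 to 19 (mouse) or 22 (human) and X, in register with the intervals. The members and intervals were chosen with earlier results of these data known, and all of their peaks are described. The overlap code was tested on simulated data. Python 3.11.15, pandas 2.3.3 and numpy 2.4.6 were used. Alternatives were membership by centre, the wider 50% of each list, joining of peaks 200 bp or less apart, widening by 25 kb, a width 1 base longer, sharing by 50% of a peak or by centres within 1000 bp, spacing by starts, and ranks without contigs and chromosome Y. No sequence is shown, since the tables used here hold none for these genes.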

Additional observations from a re-analysis of the deposited data

How the results depend on the processing

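Of 123 alternative values for 40 results, 116 stayed within 1.5 times the reported value. The 7 others were these. With peaks 200 bp or less apart joined, the Pol I list had 2 peaks at the mouse 45S copy. In the wider 50% of its list, HMLER UBF had 1 peak at the 5S array, covering 2240 bp. By centres within 1000 bp, 6 of the 10 peaks of the other lists counted as shared with the UBF peak of the mouse copy. With at least 50% of a peak covered, 1 HMLER UBF peak of the 5S array counted as shared with Pol I, and 0 Pol I peaks with HMLER UBF. Without contigs and chromosome Y, the widest HMEC Pol I peak at these genes was that of the 5S array, at rank 2. Widening the intervals by 25 kb added no peak in any list, and membership by centre lost none. The 116 include values that were bound to stay, such as a width 1 base longer or a subset of a list without a peak there. The human contig could not be widened. No paired analysis was possible because each group has 1 list. The depth is unknown and limits what an absent peak can show.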

Other observations

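The widest H3K4me3 peak of NIH3T3, which was noticed after its width was seen, lay on mm9 chromosome 8 from 126078023 to 126119836 (41813 bp). H3K9ac covered 88.0% of it with 19 peaks and H4 hyperacetylation 57.0% with 25 peaks. Pol II covered 9.0% with 7 peaks, the widest of 759 bp. UBF, Pol I and H3K9me3 had no peak there, unlike at the 45S copy on chromosome 17. The RefSeq table of GRCm38.p6 places 47 genes named as 5S ribosomal RNA on chromosome 8, of 65 rRNA genes in all. Its positions belong to another build and were not carried to mm9, so whether the peak lies at these genes was not tested. The same table has no gene under the symbol Rn45s. It lists the pseudogene Rn18s-rs5 on chromosome 17, between Esp15 and AY036118, and was likewise not set against the mm9 interval.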
